A study of Mus musculus with 18 samples.

Results

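The regenerating (Reg) family encodes small secreted C-type lectins, and its 7 mouse members were followed here in pancreatic islets: Reg1, Reg2, Reg3a, Reg3b, Reg3d, Reg3g and Reg4. They were taken by symbol as 7 of the 54186 rows of the gene count table. The filter on low counts kept 6 of the 7, among 20244 genes kept in all, and Reg4 did not pass. Islets were taken from 18 FVB mice at 6 weeks of age, and each mouse gave 1 library. The hIAPP mice (n = 6) carried a transgene for human islet amyloid polypeptide (IAPP), a hormone that beta cells release with insulin. The rIAPP mice (n = 6) carried a transgene for the rodent peptide. The insulin II promoter, which is active in beta cells, drove either transgene, and the WT mice (n = 6) carried none. The Reg genes are set beside Cpa1 and Cela1, which encode the carboxypeptidase A1 and the elastase 1 of pancreatic acinar cells, because an islet preparation can hold exocrine tissue.

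Reg1 encodes lithostathine (pancreatic stone protein), which acinar cells secrete into pancreatic juice, and Reg2 encodes a close relative studied as a growth factor of beta cells. The Reg3 proteins are lectins: Reg3b and Reg3g bind bacteria in the gut, and Reg3b is also known as pancreatitis-associated protein because it climbs steeply in acinar cells during pancreatitis. Reg3d is related to the islet neogenesis associated protein of the hamster, and Reg4 is known from enteroendocrine cells of the intestine. Cytokines of the IL-6 family and IL-22, which act through the transcription factor STAT3, are known inducers of Reg3 genes, and the glycosyltransferase-like protein EXTL3 is a proposed cell surface receptor of Reg proteins.

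On GRCm38, with the GENCODE M21 annotation, 6 of the 7 genes lie together on chromosome 6 within 98.2 kb (chr6:78370657-78468872), and all 7 are annotated as protein coding. The order is Reg3b (plus strand), Reg3d (minus), Reg3a, Reg2 and Reg1 (all plus) and Reg3g (minus). The gaps between neighbours were 2407 bases from Reg3b to Reg3d, 1843 to Reg3a, 11795 to Reg2, 14604 to Reg1 and 37601 to Reg3g. Reg4 lies alone on chromosome 3 (chr3:98222156-98236748, plus strand). Reg1 and Reg2 transcripts were identical at 81.5% of aligned bases, with a longest identical run of 19 bases. Reg3b and Reg3g transcripts were identical at 74.7%, and their longest identical run of 35 bases was the longest among the 15 pairs of the cluster. How reads shared between such copies were assigned is not given in the sources used here, so the split of counts among the members is uncertain to that extent.

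The promoters of 4 members are shown because the levels of Reg1 and Reg3d followed one pattern across libraries and those of Reg2 and Reg3b another, as described further on. Each is a window of 300 bases from RefSeq (GRCm38.p6), most of it before the RefSeq start of the gene and 50 bases after it, 5′ to 3′ on the gene's own strand. All 7 members had an entry in the RefSeq promoter table. Capitals mark matches, on either strand, to TTCNNNGAA (the type bound by STAT factors), CACCTG (an E-box, as bound by the acinar factor PTF1A with its partners), TTTCCCA (the type bound by RBPJ and RBPJL) and TATAAA (the TATA box). The windows are chr6:78425733-78426032 (plus) for Reg1, chr6:78378816-78379115 (minus) for Reg3d, chr6:78404905-78405204 (plus) for Reg2 and chr6:78370635-78370934 (plus) for Reg3b. GENCODE M21, used for the gaps above, starts Reg1 at 78422711 and Reg2 at 78395623, upstream of these windows. The windows of Reg1 and Reg2 thus lie inside the GENCODE spans of the genes.
Reg1: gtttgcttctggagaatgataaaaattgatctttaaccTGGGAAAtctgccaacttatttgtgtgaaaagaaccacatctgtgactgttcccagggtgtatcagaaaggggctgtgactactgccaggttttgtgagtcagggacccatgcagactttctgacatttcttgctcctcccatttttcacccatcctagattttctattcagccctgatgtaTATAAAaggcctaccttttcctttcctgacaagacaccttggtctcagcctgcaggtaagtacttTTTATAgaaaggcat
Reg3d: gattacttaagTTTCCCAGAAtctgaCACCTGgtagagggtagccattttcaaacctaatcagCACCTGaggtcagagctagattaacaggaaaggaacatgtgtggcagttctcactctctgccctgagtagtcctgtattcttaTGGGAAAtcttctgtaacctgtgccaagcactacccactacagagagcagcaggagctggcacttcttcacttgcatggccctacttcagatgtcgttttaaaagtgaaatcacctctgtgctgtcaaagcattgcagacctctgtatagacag
Reg2: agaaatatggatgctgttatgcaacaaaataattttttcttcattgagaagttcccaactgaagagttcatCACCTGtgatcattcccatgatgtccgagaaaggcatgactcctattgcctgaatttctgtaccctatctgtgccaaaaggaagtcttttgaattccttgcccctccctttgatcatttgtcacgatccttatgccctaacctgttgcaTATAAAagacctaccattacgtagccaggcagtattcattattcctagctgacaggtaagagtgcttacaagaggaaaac
Reg3b: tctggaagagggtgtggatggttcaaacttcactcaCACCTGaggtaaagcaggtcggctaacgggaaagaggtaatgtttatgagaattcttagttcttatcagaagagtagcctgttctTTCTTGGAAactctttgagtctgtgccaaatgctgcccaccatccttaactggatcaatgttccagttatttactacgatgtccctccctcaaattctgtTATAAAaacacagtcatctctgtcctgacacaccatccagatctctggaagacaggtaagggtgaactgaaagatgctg

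TTTCCCA was found in Reg1 (1 match), Reg3d (2) and Reg3g (2), and in 8.1% of all 32851 promoter windows of the same length. CACCTG was found in 5 members, Reg2, Reg3a, Reg3b and Reg4 with 1 match each and Reg3d with 2, and in 20.2% of all windows. Reg3d alone among the members held both of these, as did 1.6% of all windows. TTCNNNGAA was found in Reg3b and Reg3d (8.3% of all windows), and in Reg3d it overlaps a TTTCCCA match. TATAAA was found in Reg1, Reg2, Reg3b and Reg3g (13.6% of all windows), and each of these 4 genes had a match starting 27 to 30 bases before the RefSeq start. Between the 6 members of the cluster, promoters were identical at 60.2% (Reg1 and Reg3d) to 73.9% (Reg3a and Reg3g) of aligned bases. Positions with a gap were left out, and the identity of unrelated windows was not computed, so these values have no background. These matches describe the letters of the windows and no binding was measured.

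Libraries held 109.6 M to 166.2 M counts (M for mega). All 10 beta cell markers passed the filter and none was at 0, with summed levels of 68720 to 126460 CPM (counts scaled to a common library size) in hIAPP, 73998 to 101938 in rIAPP and 126592 to 158597 in WT. These markers include Iapp, and whether transgene reads were counted toward it is not given in the sources used here. Cpa1 ranged over 182, 444 and 1298 CPM (lowest, median and highest of 6) in hIAPP, 306, 674 and 1329 in rIAPP and 67.1, 122 and 269.8 in WT. Cela1 ranged over 109, 284 and 541 CPM in hIAPP, 167, 428 and 776 in rIAPP and 42.6, 70.2 and 154 in WT. Both acinar genes were thus higher in every rIAPP library than in any WT library, and 5 of 6 hIAPP libraries lay above all WT libraries. The mean log2 CPM of the pair is called the acinar index below, and it averaged 8.44 ± 0.88 in hIAPP, 8.94 ± 0.83 in rIAPP and 6.61 ± 0.69 in WT (SD, n = 6 each). In bulk RNA, more acinar cells in a preparation and more acinar RNA per cell cannot be told apart.

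Among hIAPP libraries, hIAPP 5 and hIAPP 6 stood apart. Their summed macrophage markers were 836 and 688 CPM against 393 to 535 in the other 4 hIAPP libraries. Their summed beta cell markers were 68720 and 84221 CPM against 113686 to 126460. Their acinar indices of 8.95 and 9.71 were the highest of their group, with hIAPP 4 close to hIAPP 5 at 8.61. They also held the fewest counts of all libraries, 109.6 M and 116.5 M. Results that rest on hIAPP libraries are therefore also given without these 2. Their part in the results other than by leaving them out was not tested. hIAPP 5 and hIAPP 6 also bear the 2 highest numbers in the sample titles of the series (the title number below). The labels do not say what the numbers stand for. Their order cannot be told apart from the other traits of hIAPP 5 and hIAPP 6. The replicates are separate mice, so p values measure the spread between mice.

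Reg1, the most abundant member, was higher in both transgenic groups. It ranged over 54.1, 144 and 322 CPM in hIAPP, 50.1, 92.4 and 272 in rIAPP and 19.4, 35.8 and 79.0 in WT. In each transgenic group 4 of 6 libraries lay above the highest WT library, and the other 2 lay within the WT range. Reg2 ranged over 5.65, 24.1 and 178 CPM in hIAPP, 0.492, 8.51 and 19.8 in rIAPP and 1.18, 6.60 and 23.3 in WT. The levels of Reg2 in hIAPP 5 and hIAPP 6 were 130.3 and 178 CPM, while the other 4 hIAPP libraries had 5.65 to 27.3, of which 1 lay above the highest WT library. In rIAPP 4 and rIAPP 6, Reg2 was at 0.492 and 0.842 CPM, below every WT library, whereas rIAPP 1, rIAPP 2 and rIAPP 5 had 15.1 to 19.8.

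**Figure D1:**
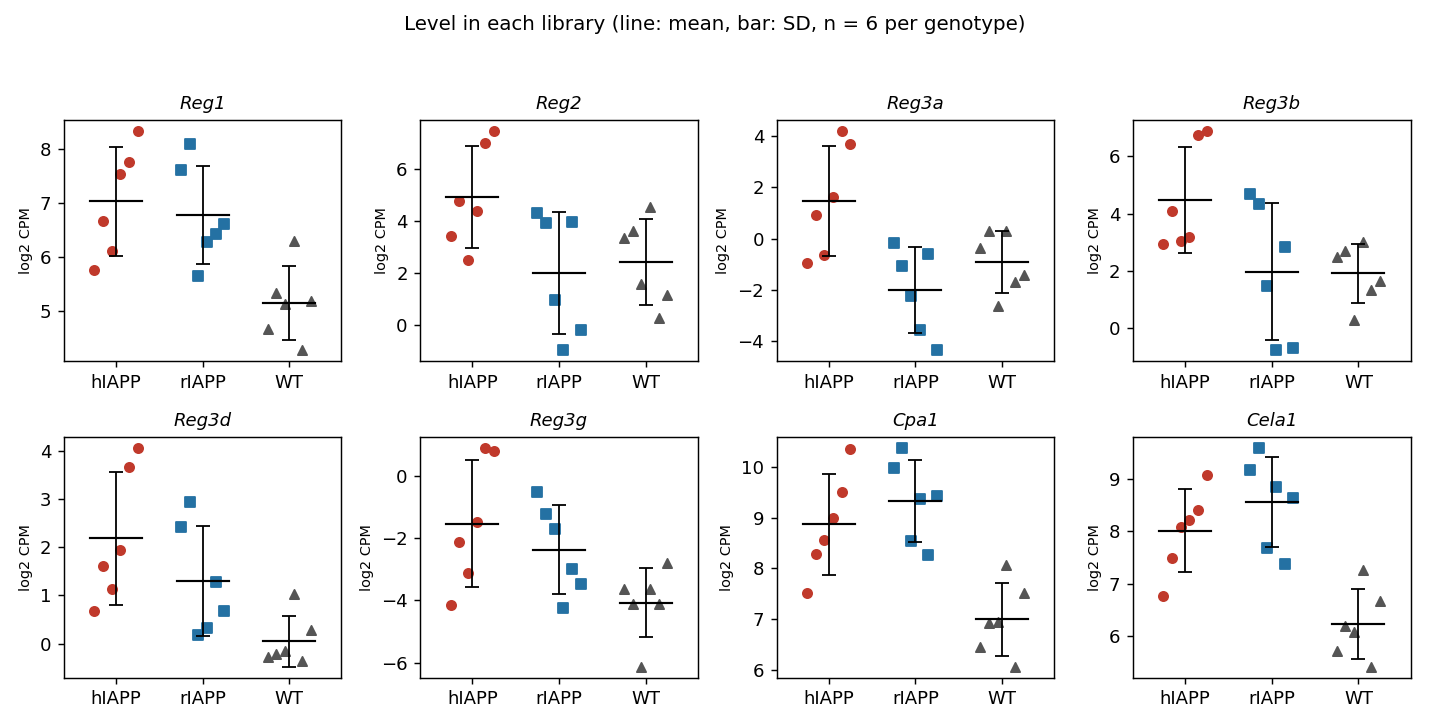
Level of 6 Reg genes, Cpa1 and Cela1 in each of 18 libraries, as log2 CPM (prior count 2), by genotype; points are libraries, the line is the mean and the bar the SD (n = 6). The highest Reg2, Reg3a, Reg3b, Reg3d and Reg3g points belong to hIAPP 5 and hIAPP 6, and the lowest Reg2, Reg3a and Reg3b points to rIAPP 4 and rIAPP 6, while no member separates a transgenic group fully from WT.

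The Reg3 lectins showed the same 2 high hIAPP libraries. Reg3b ranged over 7.59, 12.9 and 118 CPM in hIAPP, 0.574, 4.94 and 25.9 in rIAPP and 1.21, 4.37 and 8.12 in WT. It was at 107 and 118 CPM in hIAPP 5 and hIAPP 6, and 5 of 6 hIAPP libraries lay above all WT libraries. Reg3a ranged over 0.500, 2.49 and 18.5 CPM in hIAPP, 0.0342, 0.330 and 0.870 in rIAPP and 0.145, 0.557 and 1.23 in WT. The 4 highest hIAPP libraries lay above every WT and every rIAPP library, and rIAPP 4 and rIAPP 6 held 11 and 5 counts of Reg3a in all. Reg3d ranged over 1.58, 3.43 and 16.7 CPM in hIAPP, 1.13, 2.00 and 7.67 in rIAPP and 0.760, 0.868 and 2.01 in WT, with 5 of 6 hIAPP libraries above all WT libraries. Reg3g was rare, at 0.0424, 0.276 and 1.85 CPM in hIAPP, 0.0378, 0.199 and 0.683 in rIAPP and 0, 0.0545 and 0.130 in WT, where its counts were 0 to 17 per library. The WT 3 library had no Reg3g count, which at 3 counts allows up to 0.0198 CPM. Such limits cover counting error only.

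Reg4 had 4 counts in the whole series, 3 in rIAPP 5 and 1 in hIAPP 2, and was not tested. In each of the 16 libraries with no count, a level of up to 3 counts, which is 0.0187 to 0.0254 CPM, is allowed. Reg4 was thus at or near 0 while the other members were measured in every group, although Reg3g had few counts in WT. Set per kilobase of the longest protein coding transcript, the median level of the members had the same order in all 3 genotypes: Reg1, Reg2, Reg3b, Reg3d, Reg3a, Reg3g and Reg4. In hIAPP the medians were 159.8 CPM per kb for Reg1, 34.6 for Reg2, 16.5 for Reg3b, 4.39 for Reg3d, 3.02 for Reg3a and 0.358 for Reg3g. Within single libraries, Reg1 exceeded Reg2 per kilobase in all 18. The neighbours Reg3b and Reg3d, and Reg3a and Reg3g, kept their order in 6 of 6 hIAPP, 4 of 6 rIAPP and 6 of 6 WT libraries. Reg3d exceeded Reg3a in 5 of 6 hIAPP, 6 of 6 rIAPP and 5 of 6 WT libraries. Reg2 and Reg3b were not in a fixed order, with Reg2 higher in 5 of 6 hIAPP, 2 of 6 rIAPP and 4 of 6 WT libraries. In WT the same medians were 39.7, 9.45, 5.58, 1.11, 0.676 and 0.0707 CPM per kb.

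All members together made up 0.00709% to 0.0676% of counts in hIAPP, 0.00572% to 0.0311% in rIAPP and 0.00234% to 0.0110% in WT. The mix also differed between libraries. Reg1 supplied 44.6% and 49.6% of the family's counts in hIAPP 5 and hIAPP 6, and 67.4% to 83.4% in the other hIAPP libraries. It supplied 97.0% and 96.9% in rIAPP 4 and rIAPP 6, 77.0% to 88.9% in the other rIAPP libraries, and 59.4% to 87.0% in WT. Reg1 had 1.67 to 12.3 times the CPM of Reg2 in hIAPP libraries, 5.57 to 159 times in rIAPP libraries and 2.51 to 16.8 times in WT libraries. Against Reg3d the same ratio was far steadier, at 17.2 to 48.7 in hIAPP, 35.4 to 62.8 in rIAPP and 25.6 to 47.6 in WT.

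The first comparison set islets with the human transgene against WT islets. All 6 tested members rose in hIAPP islets (6 of 6 higher, against 8.31% of all 20244 genes higher and 15.8% called in either direction), from 4.03-fold for Reg1 up to 12.2-fold for Reg3g. Reg3g, with 0 to 17 counts per WT library, passed the filter on low counts through the transgenic libraries. Its call and its fold change are limited by that, and the next highest was 9.86-fold for Reg3b. In no member were all hIAPP libraries above all WT libraries, which was so for 3.74% of genes. Reg1 rose by a log2 of 2.01 ± 0.46 (SE, edgeR adjusted p = 0.00536) and Reg2 by 2.84 ± 0.96 (adjusted p = 0.0490). Reg3a rose by 3.23 ± 0.85 (adjusted p = 0.0131), Reg3b by 3.30 ± 0.92 (0.0186), Reg3d by 2.62 ± 0.59 (0.00521) and Reg3g by 3.60 ± 0.91 (0.0101). Cpa1 rose by 1.99 ± 0.44 and Cela1 by 1.82 ± 0.40 in the same fit, and the median over all genes was -0.01.

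These calls depended on the libraries that stood apart. Without hIAPP 5 and hIAPP 6, edgeR called 0 of the 6 members (8.13% of 20600 genes were called), with Reg1 and Reg3d at an unadjusted p under 0.05 and fold changes of 0.90 (Reg2) to 1.60 (Reg3g) on the log2 scale. The call of Reg2 was lost when any of 11 libraries was left out in turn, namely hIAPP 2, hIAPP 5, hIAPP 6, rIAPP 2, rIAPP 3, rIAPP 5 and all WT libraries but WT 4 (adjusted p 0.0514 to 0.149), and that of Reg3b without hIAPP 5 (0.0506) or hIAPP 6 (0.0558). The limma-voom fit with sample weights called Reg1 alone, and with the title number as a covariate Reg1, Reg3d and Reg3g were called.

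The second comparison set the human against the rodent transgene. Reg2 and Reg3a rose in hIAPP islets and the other 4 members did not pass (2 of 6 called, both higher, against 13.5% of all genes higher and 27.6% called in either direction). Reg2 was higher by a log2 of 2.80 ± 0.96 (SE, edgeR adjusted p = 0.0339) and Reg3a by 4.05 ± 0.89 (adjusted p = 0.00171), a 16.5-fold difference. The values were 2.23 ± 0.88 for Reg3b (adjusted p = 0.0649), 1.05 ± 0.56 for Reg3d (0.180), 1.40 ± 0.80 for Reg3g (0.211) and 0.29 ± 0.44 for Reg1 (0.685). Cpa1 and Cela1 lay at -0.36 ± 0.43 and -0.57 ± 0.38 and did not pass. No member had all hIAPP libraries above all rIAPP libraries, against 6.52% of genes. Without hIAPP 5 and hIAPP 6, edgeR called 0 members (24.9% of genes were called, and Reg3a had an unadjusted p under 0.05), with Reg3a at 2.01 (adjusted p = 0.0518) and Reg2 at 0.85 (0.543). The call of Reg2 was also lost without hIAPP 5, hIAPP 6, rIAPP 3, rIAPP 4 or rIAPP 6 alone (adjusted p 0.0586 to 0.105), and that of Reg3b was gained without hIAPP 1, hIAPP 3 or rIAPP 1 (0.0285 to 0.0486).

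The third comparison set the rodent transgene against WT. Reg1 rose by a log2 of 1.73 ± 0.45 (SE, edgeR adjusted p = 0.00701), 3.31-fold, and was the 1 member called of 6 (14.1% of all genes were higher and 26.8% called in either direction). Reg3d lay just outside the threshold at 1.57 ± 0.58 (adjusted p = 0.0504) and Reg3g at 2.198 ± 0.89 (0.0759). Reg3b lay at 1.07 ± 0.87 (0.415), Reg2 at 0.04 ± 0.91 (0.982) and Reg3a at -0.82 ± 0.85 (0.540). No member had all rIAPP libraries above all WT libraries, against 8.13% of genes, although Cpa1 (2.35 ± 0.45) and Cela1 (2.39 ± 0.40) did. Reg3d passed under 6 of the other settings and without any one of hIAPP 1, hIAPP 3, hIAPP 5, hIAPP 6, rIAPP 3, rIAPP 4, rIAPP 6 or WT 4 (adjusted p 0.0332 to 0.0466), and without both hIAPP 5 and hIAPP 6 Reg1, Reg3d and Reg3g passed. The 3 comparisons share libraries, so their values are not independent.

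**Figure D2:**
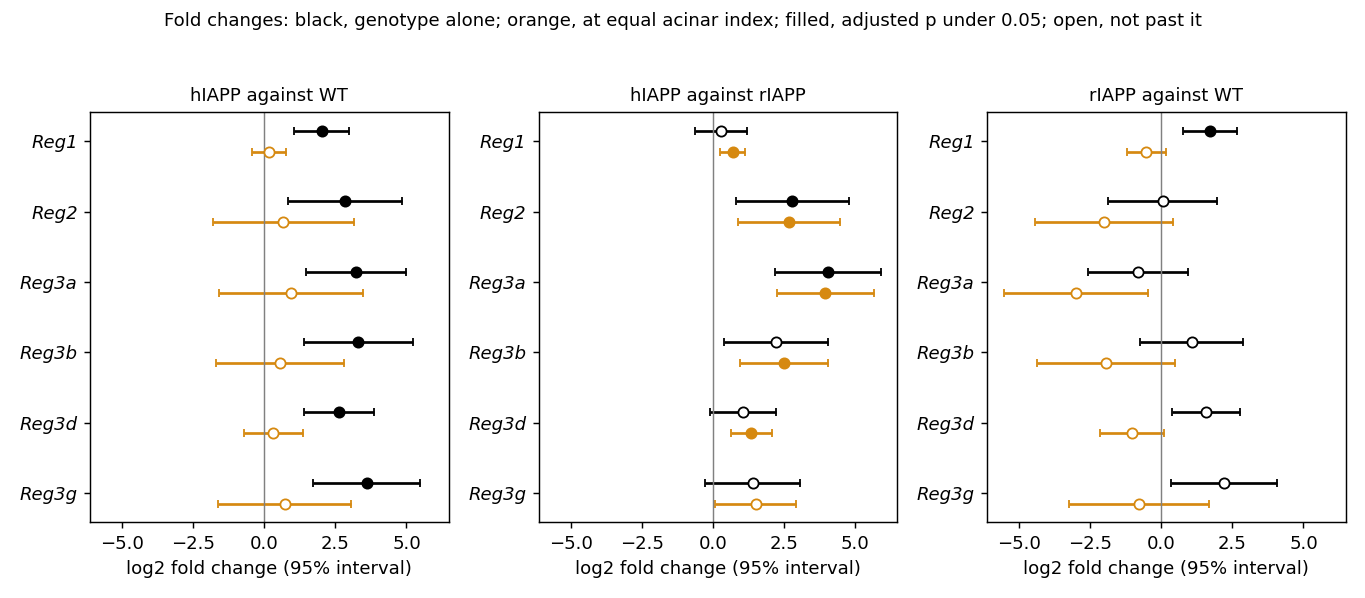
Log2 fold changes of 6 Reg genes with 95% intervals in 3 comparisons, from the genotype fit (black) and from the fit at equal acinar index (orange); filled points have an edgeR adjusted p under 0.05. For hIAPP against WT all 6 black points are filled and all 6 orange points open, and for hIAPP against rIAPP 5 orange points are filled against 2 black points.

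Within genotypes the members followed the acinar genes to very different degrees. The slope of a member's log2 level on the acinar index, fitted with 1 mean per genotype so that group differences do not feed it, was 0.95 ± 0.11 for Reg1 (SE, edgeR adjusted p = 2.37e-05) and 1.07 ± 0.18 for Reg3d (adjusted p = 0.00311). These 2 of 6 passed, both with a rising slope, against 0.38% of all genes (77 of 20244) and 0.37% with a rising slope. For Reg2 (1.003 ± 0.42), Reg3a (0.99 ± 0.43), Reg3b (1.19 ± 0.38) and Reg3g (1.26 ± 0.40) the slopes were as large, but with adjusted p values of 0.388 to 0.632 they did not pass. All 6 members had an unadjusted p under 0.05. The index accounted for 77.7% of the within-genotype variance of Reg1 and 60.8% of that of Reg3d, and for 14.9% to 17.6% of that of Reg2, Reg3a and Reg3b and 30.2% of that of Reg3g. Of the 23 other acinar enzymes, 22 had a slope that passed. Without hIAPP 5 and hIAPP 6, the slope of Reg1 passed in edgeR (0.92, adjusted p = 0.00111) and that of Reg3d did not (0.82, adjusted p = 0.0769).

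**Figure D3:**
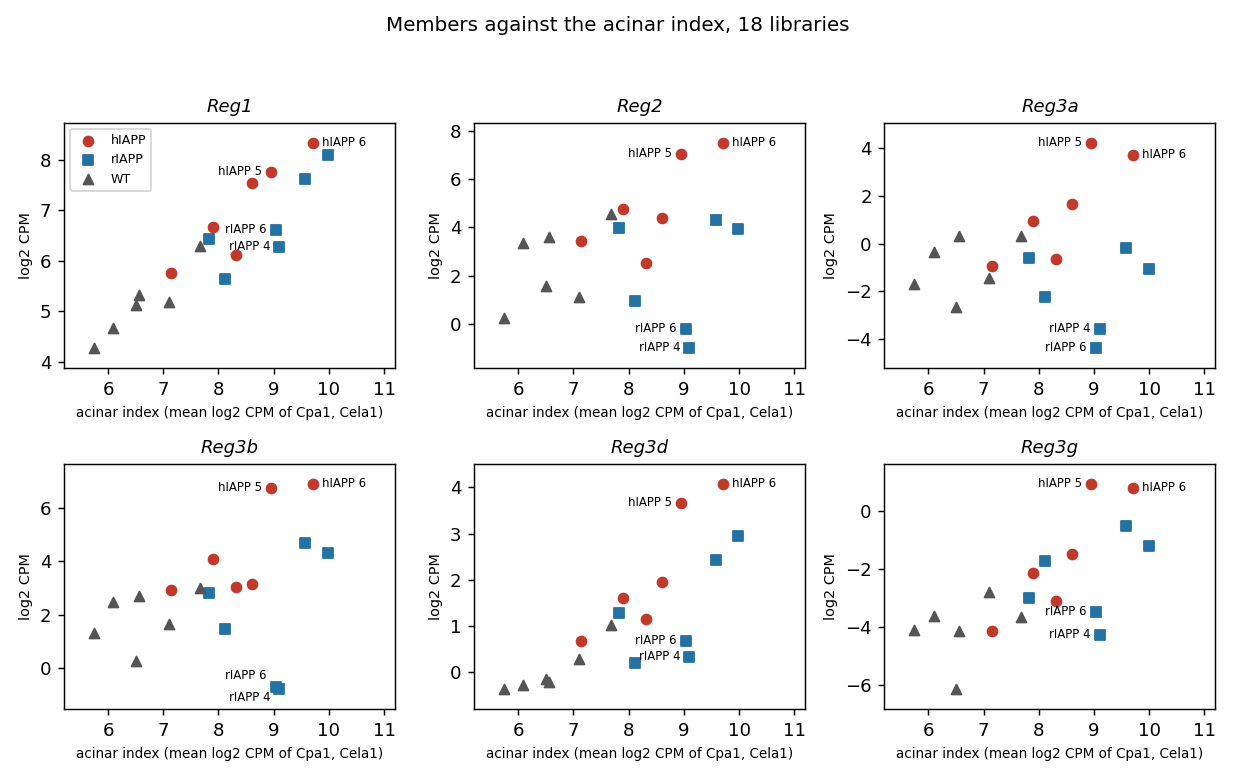
Level of 6 Reg genes (log2 CPM) against the acinar index, the mean log2 CPM of Cpa1 and Cela1, in 18 libraries. Reg1 and Reg3d follow the index, while rIAPP 4 and rIAPP 6, with indices of 9.10 and 9.03, have the lowest Reg2, Reg3a and Reg3b levels of the series, and hIAPP 5 and hIAPP 6 the highest.

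At equal acinar index, 0 of 6 members passed for hIAPP against WT in edgeR, the tool used for all fits with the index, and 0 had an unadjusted p under 0.05. Of all genes, 3.4% were called. The values were 0.17 ± 0.29 for Reg1 (95% interval -0.43 to 0.77), 0.32 ± 0.50 for Reg3d (-0.72 to 1.36), and between 0.55 (Reg3b) and 0.95 (Reg3a) for the other 4, with intervals that reached from -1.82 to 3.48. The intervals of Reg2, Reg3a, Reg3b and Reg3g thus still held differences of 2.80 to 3.48 on the log2 scale. hIAPP and WT libraries overlapped in the index only between 7.14 and 7.67, a range that held hIAPP 1 and WT 4, and elsewhere this contrast rests on the fitted slope.

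Between the transgenic groups, which overlapped over most of the index, 5 of 6 members were higher in hIAPP at equal index (12.8% of all genes were higher and 26.7% called in either direction). The differences were 0.70 ± 0.21 for Reg1 (SE, edgeR adjusted p = 0.0173), 2.68 ± 0.86 for Reg2 (0.0258), 3.96 ± 0.81 for Reg3a (0.00111), 2.50 ± 0.74 for Reg3b (0.0161) and 1.35 ± 0.34 for Reg3d (0.00590). Reg3g lay at 1.501 ± 0.67 (0.110). Without hIAPP 5 and hIAPP 6, Reg3a alone passed (2.36, adjusted p = 0.0413, with 18.7% of genes called). Of the single libraries, leaving out hIAPP 5 ended the calls of Reg2 and Reg3b (0.0628 and 0.0543), rIAPP 3 those of Reg1 and Reg2 (0.0551 and 0.0586), and hIAPP 6 or rIAPP 2 that of Reg2 (0.0624 and 0.0577).

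For rIAPP against WT at equal index, 0 of 6 members passed in edgeR (9.85% of all genes were called and 4.26% were lower), and 1, Reg3a, had an unadjusted p under 0.05. All 6 values were below 0, at -3.01 ± 1.21 for Reg3a (SE, edgeR adjusted p = 0.139), -2.02 ± 1.17 for Reg2 (0.348), -1.95 ± 1.16 for Reg3b (0.364), -1.04 ± 0.54 for Reg3d (0.284), -0.79 ± 1.17 for Reg3g (0.779) and -0.53 ± 0.32 for Reg1 (0.381). Without rIAPP 5, the rIAPP library with the lowest index, Reg2 (-4.77, adjusted p = 0.0459) and Reg3a (-5.20, 0.0323) passed. The lowest index in rIAPP was 7.82 and the highest in WT 7.67, so these groups did not overlap and the genotype and the acinar level cannot be told apart in this contrast.

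The plain ratio of a member to the acinar index, log2 CPM minus the index, makes no use of a fitted slope. It takes each member to rise in step with the index. A member with an unchanged level thus has a lower ratio where the index is higher. For Reg1 it averaged -1.41 ± 0.41 in hIAPP, -2.16 ± 0.51 in rIAPP and -1.46 ± 0.23 in WT (SD, n = 6 each). The ratio differed by 0.05 between hIAPP and WT (exact two-sided permutation p = 0.753) and was lower in rIAPP than in WT (-0.70, exact p = 0.0173). All p values of this kind are unadjusted, 18 were computed, and 6 against 6 libraries allow none below 0.00216. For Reg3a the ratio averaged -6.96 ± 1.496 in hIAPP, -10.95 ± 1.85 in rIAPP and -7.53 ± 1.13 in WT, and the difference of rIAPP from WT was -3.41 (exact p = 0.00649).

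The index averaged 8.94 in rIAPP and 6.61 in WT without overlap, and that gap enters every ratio difference between these groups. The genotype fit called no member lower in rIAPP, with Reg2 at 0.04, Reg3a at -0.82 and Reg3b at 1.07. Reg1 (1.73) and Reg3d (1.57) lay higher in that fit. The ratio was below WT in rIAPP by similar tests for Reg2 (-2.75, exact p = 0.0346), Reg3b (-2.26, exact p = 0.0455) and Reg3d (-1.07, exact p = 0.0108), but not for Reg3g (-0.63, exact p = 0.392). The same 5 members were higher in hIAPP than in rIAPP, by 0.75 for Reg1 (exact p = 0.0260), 3.44 for Reg2 (0.0152), 3.99 for Reg3a (0.00433), 3.002 for Reg3b (0.0173) and 1.38 for Reg3d (0.0173). Between hIAPP and WT the 6 differences were 0.05 to 0.74 with exact p values of 0.284 or above. The rIAPP call of Reg2 was lost without rIAPP 3, rIAPP 4, rIAPP 6, WT 1, WT 2 or WT 4 (exact p 0.0519 to 0.0714), and that of Reg3b without any one of those or of WT 5 or WT 6 (0.0541 to 0.106). With the index taken from the other acinar enzymes, the Reg3b ratio of rIAPP to WT did not pass (-2.12, exact p = 0.0563). Without hIAPP 5 and hIAPP 6 the difference from rIAPP passed for Reg3a alone (3.19, exact p = 0.0190).

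**Figure D4:**
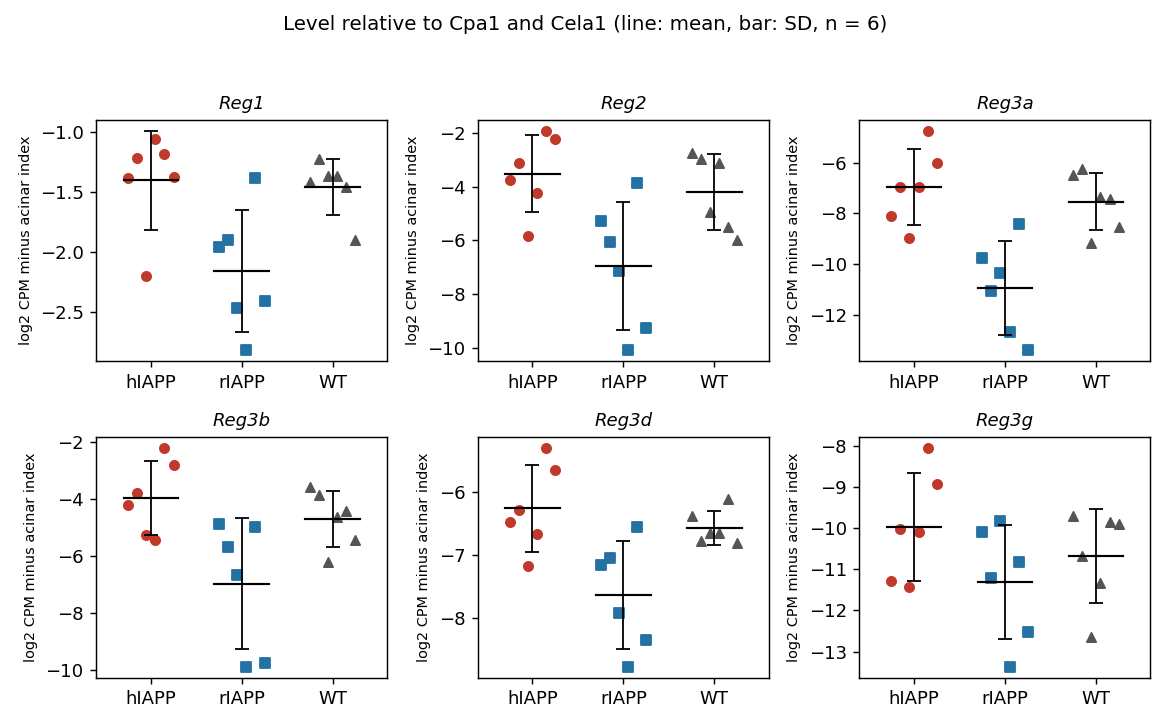
Level of 6 Reg genes relative to the acinar index (log2 CPM minus the mean log2 CPM of Cpa1 and Cela1) by genotype; points are libraries, the line is the mean and the bar the SD (n = 6). For Reg1 the means are -1.41 in hIAPP, -2.16 in rIAPP and -1.46 in WT.

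The Reg genes, like Cpa1 and Cela1, were among the most variable genes between mice of 1 genotype. The pooled SD of log2 CPM within genotypes was 0.88 for Reg1, 1.08 for Reg3d, 1.58 for Reg3g, 1.73 for Reg3a, 1.84 for Reg3b and 2.02 for Reg2. The median over the 14122 genes with a mean of at least 1 CPM was 0.15, and each member lay above at least 99.3% of them. Reg3g itself averaged below 1 CPM in every genotype. Cpa1 (0.85) and Cela1 (0.78) lay in the same tail, above 99.2% and 98.9% of these genes. After the acinar index was taken out, the SD was 0.41 for Reg1 and 0.67 for Reg3d, and still 1.32 to 1.86 for the other 4. On the chromosome the steadier pair were not neighbours: Reg3d lies between Reg3b and Reg3a, which varied with Reg2.

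**Figure D5:**
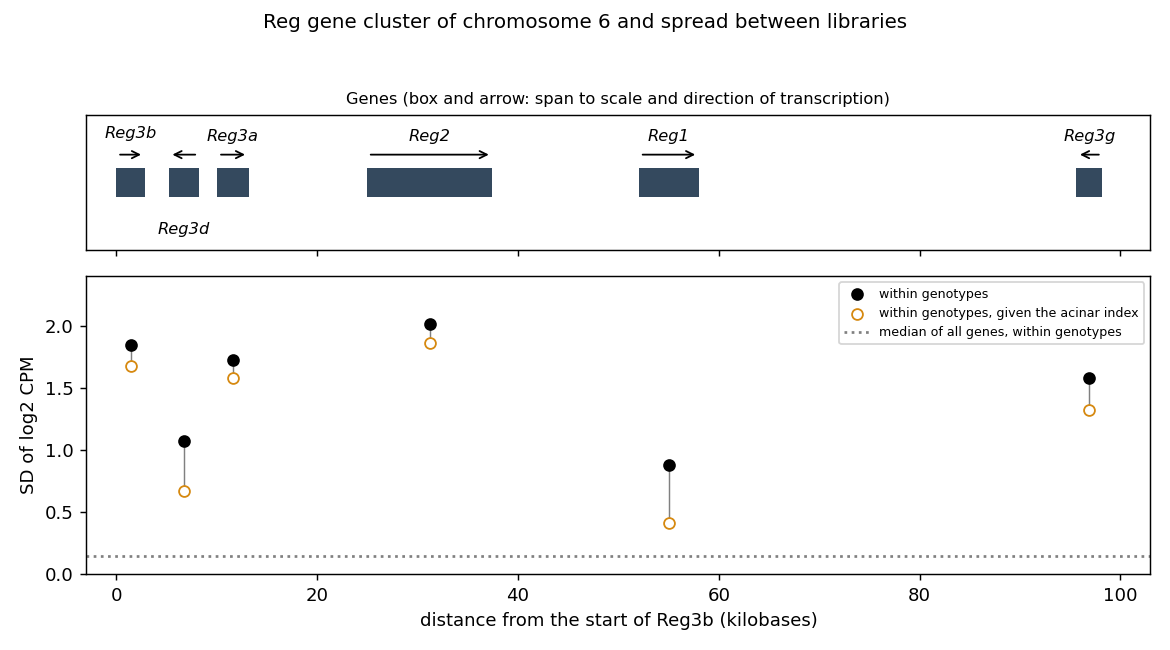
Map of the Reg gene cluster on chromosome 6, in kilobases from the start of Reg3b, above the pooled SD of log2 CPM within genotypes of each gene (black) and the SD left given the acinar index (open orange). Reg1 and Reg3d fall to 0.41 and 0.67 given the index, while Reg2, Reg3a and Reg3b stay at 1.58 to 1.86, and the dotted line marks the median gene at 0.15.

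Over the 18 libraries, the members formed groups by likeness of level, given here as Pearson's r of log2 CPM without a test, since all genes of a library share its depth and tissue mix. Reg2, Reg3a and Reg3b were closer to each other (r = 0.92 to 0.94) than to any of 12874 genes with a mean of at least 1 CPM. Within genotypes the r among these 3 was 0.91 to 0.92, and again no gene lay above. Reg3d was closest to Reg1 (r = 0.93), and Reg3g to Reg3d (r = 0.88). Within genotypes Reg1 and Reg3d were at r = 0.92, while Reg3g was closer to Reg3a (0.84) and Reg3b (0.83) than to Reg3d (0.81). With Cpa1, r was 0.93 for Reg1, 0.81 for Reg3d and 0.72 for Reg3g, against 0.42 for Reg3b, 0.34 for Reg2 and 0.25 for Reg3a.

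The genes most like each member, outside the family, differed accordingly. For Reg1 they were Dmbt1, which encodes a mucosal scavenger receptor protein (r = 0.97), Gp2, the main membrane glycoprotein of zymogen granules (0.96), Ctrb1, a chymotrypsinogen (0.95), and the trypsinogen genes Try5 and Try10 (both 0.95). For Reg3d they were Sel1l, an adaptor of endoplasmic reticulum-associated degradation (0.91), Acot11, Dmbt1, Bcat2 and Myom1 (0.88 to 0.90). For Reg3a they were Tifab, Me1, Larp1, the leukocyte gene Lcp1 and the integrin cofactor gene Fermt3 (0.84 to 0.88). Reg2 was most like Gpr157, Hebp1, Man1c1, Larp1 and B4galnt1 (0.80 to 0.86), Reg3b most like Atg13, Zfp362, Cdk18, Arhgap27 and Rhbdd2 (0.85 to 0.87), and Reg3g most like Ston1, Itih4, the receptor gene Tlr4, Sel1l and Elmo1 (0.85 to 0.87).

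Other acinar enzymes moved as Cpa1 and Cela1 did. Of the 23 other acinar enzymes, 22 rose in hIAPP against WT (median log2 fold change 1.87) and 22 in rIAPP against WT (median 2.27), and none passed between hIAPP and rIAPP (median -0.40), where the median of all genes was near 0. At equal index 1 of them, Cuzd1, passed between hIAPP and rIAPP (0.48, edgeR adjusted p = 0.0293). Summed, they reached 2789 to 20193 CPM in hIAPP, 4608 to 20501 in rIAPP and 1001 to 4337 in WT. Of 7 acinar regulators, 2 rose and 1 fell in hIAPP against WT, 1 rose and 2 fell against rIAPP, and 4 rose in rIAPP against WT. The shares of all genes called in these 3 comparisons were 15.8%, 27.6% and 26.8%. The regulators summed to 198 to 228 CPM in hIAPP, 190.2 to 248 in rIAPP and 186 to 224 in WT. Foxp2 rose in hIAPP against WT (0.95 ± 0.13, edgeR adjusted p = 4.47e-05). Nr5a2, a nuclear receptor of acinar cells, fell in hIAPP against WT (-0.61 ± 0.14, edgeR adjusted p = 0.00525). Ptf1a, an acinar transcription factor, rose by 2.45 ± 0.53 in hIAPP and by 3.03 ± 0.53 in rIAPP against WT. Ptf1a was rare, averaging 0.356 CPM in hIAPP, 0.535 in rIAPP and 0.0647 in WT, and hardly enters the regulator sum. Rbpjl, its acinar partner, rose by 2.38 ± 0.41 in rIAPP against WT and was lower in hIAPP than in rIAPP (-1.20 ± 0.39, edgeR adjusted p = 0.0284). Rbpjl averaged 5.65 CPM in rIAPP and 1.08 in WT, Foxp2 11.7 and 9.33, and Nr5a2 4.58 and 4.16. Bhlha15 averaged 20.6 CPM in rIAPP and 14.4 in WT, and Gata4 0.582 and 0.330. Most of the regulator sum in rIAPP and WT thus came from the remaining listed gene, Xbp1.

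The known upstream signals were read beside the members. Of 20 genes of the IL-6 family and STAT3 pathway, 19 passed the filter, of which 5 rose and 2 fell in hIAPP against WT (median 0.17), where 15.8% of all genes were called. Among them Cebpb, a transcription factor of the acute phase, rose by 0.58 ± 0.11 (edgeR adjusted p = 0.000987), and Il6st, the shared receptor chain gp130 of the IL-6 family, fell by a log2 of 0.22 (adjusted p = 0.0293). Against rIAPP 5 rose and 1 fell in hIAPP (27.6% of all genes were called), and in rIAPP against WT 5 rose and 3 fell (26.8%). Of 12 genes of the IL-22 and IL-17 list, 8 passed the filter, of which 2 rose in hIAPP against WT, 2 rose and 1 fell against rIAPP, and 3 rose and 1 fell in rIAPP against WT. Il22 had no count in any library, and its receptor gene Il22ra1 averaged 0.908 CPM in hIAPP, 1.13 in rIAPP and 0.225 in WT, higher in both transgenic groups than in WT (2.00 ± 0.49 and 2.32 ± 0.49, edgeR adjusted p = 0.00875 and 0.00130). At equal acinar index none of the 8 measured genes of the IL-22 and IL-17 list passed against WT in either transgenic group. Of all genes 3.4% were called in hIAPP and 9.85% in rIAPP, so none of 8 lies near these shares. Within genotypes Il22ra1 rose with the index, at a slope of 0.92 ± 0.14 (SE, edgeR adjusted p = 0.000712, against 0.38% of all genes called).

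Of 20 acute phase and injury genes, 10 passed the filter. The counts of this paragraph stand beside 15.8% of all genes called in hIAPP against WT. That share was 27.6% in hIAPP against rIAPP and 26.8% in rIAPP against WT. In hIAPP against WT 4 rose, among them Serpina3n (1.40 ± 0.17, edgeR adjusted p = 1.86e-05) and Timp1 (1.25 ± 0.18, adjusted p = 9.39e-05), which encode inhibitors of serine proteases and of metalloproteases, and Crp fell (-1.43 ± 0.21). Against rIAPP none rose and 5 fell in hIAPP, among them Lbp, Cp and C3. In rIAPP against WT 5 rose and none fell. Of the 5 genes of the EXTL3 and exostosin family, 2 rose in hIAPP and 3 rose and 1 fell in rIAPP against WT, and 2 rose and 1 fell in hIAPP against rIAPP. Extl3 averaged 40.5 CPM in hIAPP, 39.8 in rIAPP and 35.1 in WT, and rose by 0.21 ± 0.04 in hIAPP (edgeR adjusted p = 0.00358) and by 0.18 ± 0.04 in rIAPP (0.00389) against WT.

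Other lectins and antimicrobial proteins were also higher in hIAPP. Of 13 listed, 7 passed the filter, and 5 rose in hIAPP against WT (15.8% of all genes were called). Among them were Lyz2, the lysozyme of macrophages (4.24), and Clec4d (3.88), Lgals3 (2.34) and Clec7a (2.18), which encode lectins. Clec4d averaged 0.499 CPM in hIAPP and only 0.0332 in WT, which limits its call and its fold change. Against rIAPP 6 rose in hIAPP (27.6% of all genes were called), and in rIAPP against WT 1 rose and 1 fell (26.8%). Of 13 macrophage markers, which share Lyz2 with that list, 12 rose in hIAPP against WT, 12 rose and 1 fell against rIAPP, and 1 rose and 7 fell in rIAPP against WT. Their summed level was 393 to 836 CPM in hIAPP, 97.5 to 113 in rIAPP and 144 to 168 in WT, with none at 0. It was thus highest in the same hIAPP 5 and hIAPP 6 libraries that had the most Reg2, Reg3a and Reg3b.

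Markers of other cells that an islet preparation can hold were read in the same fit, and none of the lists below had a marker at 0. Beside their counts, 15.8% of all genes were called in hIAPP against WT. That share was 27.6% in hIAPP against rIAPP and 26.8% in rIAPP against WT. Ductal markers summed to 552 to 674 CPM in hIAPP, 684 to 821 in rIAPP and 577 to 691 in WT, and 1 of 12 was higher and 4 were lower in hIAPP against WT, none was higher and 5 were lower in hIAPP against rIAPP, and 5 were higher and 2 lower in rIAPP against WT. Stellate and mesenchymal markers summed to 599 to 1266 CPM in hIAPP, 988 to 1783 in rIAPP and 412.4 to 692 in WT, and 6 of 8 rose in hIAPP and 7 of 8 in rIAPP against WT. All 8 endothelial markers were higher in rIAPP than in WT and lower in hIAPP than in rIAPP, at sums of 553 to 632 CPM in hIAPP, 763 to 863 in rIAPP and 609 to 696 in WT. Of the 10 markers of alpha, delta and PP cells, none rose and 1 fell in hIAPP against WT and 2 fell in rIAPP. Of the 10 gut epithelium markers 5 passed the filter, of which 1 rose and 1 fell in hIAPP against WT, none rose and 3 fell in hIAPP against rIAPP, and 3 rose in rIAPP against WT, namely Tff3 (3.55), Tff2 (2.18) and Vil1 (0.56). Of the 10 beta cell markers, which include Iapp, 7 fell in hIAPP and 9 in rIAPP against WT. The part of these cell types in the Reg levels was not tested.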

How the data were processed

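The authors deposited 1 table of estimated counts per gene symbol, not normalised, for 18 islet libraries (109.6 M to 166.2 M counts each). STAR, HTSeq, GRCm38 and mm10 are named without versions, per the submitters' processing notes. Not given in the sources used here were the annotation, the strand setting and the step behind fractional values. Fractional values made up 39.2% of values above 0 (28 of 109 among the members) and were rounded, which moved a member by at most 0.483 counts.

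Counts were tested with edgeR 4.0.16 (quasi-likelihood, TMM, filterByExpr by genotype, 20244 genes kept, all 18 libraries, 1 mean per genotype) in R 4.3.3, with Benjamini-Hochberg adjustment over all kept genes and a threshold of 0.05. The acinar index, the mean log2 CPM (prior count 2) of Cpa1 and Cela1, entered a second fit as a covariate. Ratios to the index were compared with exact two-sided permutation tests. CPM used TMM factors. The fit was also run on simulated counts, in which genes varied independently apart from the changes put in. That run does not cover shifts shared by many genes of a library, and its outcome is not given here. DESeq2 1.42.0, limma 3.58.1, other scalings, other filters and left-out libraries were alternatives, and the alternatives for the ratio were chosen after seeing the data.

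The members and the gene lists were chosen with earlier results of these data known. Named genes were all members, Cpa1 and Cela1, up to 4 called genes with the smallest p per list and comparison, and the 5 genes most like each member. Positions came from GENCODE M21 and promoters from RefSeq GRCm38.p6. The 45 pairs of libraries within genotypes differed by more than counting error (chi-square per degree of freedom 26.1 to 248).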

Additional observations from a re-analysis of the deposited data

Results flagged for a closer look

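Among 42 groups of 6 libraries examined (the CPM of 6 Reg genes, Cpa1 and Cela1 and the log2 ratios of the 6 Reg genes to the acinar index, in each genotype), 4 had a library whose gap to its nearest neighbour exceeded Dixon's 95% critical value of 0.625 of the group's range. Chance alone flags about 1 group in 20. Reg1 was at 79.0 CPM in WT 4, against 19.4 to 40.3 CPM in the other WT libraries. Reg3d was at 2.01 CPM in WT 4, against 0.760 to 1.204 CPM in the others. The WT 4 library also had the highest acinar index of the WT libraries (7.67). The log2 ratio of Reg1 to the acinar index was -1.90 in WT 6, against -1.46 to -1.22 in the other WT libraries, and -2.20 in hIAPP 3, against -1.38 to -1.06 in the other hIAPP libraries.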

How the results depend on the processing

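No paired analysis was possible because the labels give no replicate numbers that the genotypes share. The causes of the shifts below were not tested.

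For hIAPP against WT, the members called were 6, but 5 in the robust fit (Reg2 lost, adjusted p = 0.0940) and with at least 1 CPM in at least 6 libraries (Reg3g not kept by that filter), 3 with the title number as a covariate, 1 in limma-voom and 0 without hIAPP 5 and hIAPP 6, and 4 to 6 when single libraries were left out. For hIAPP against rIAPP, they were 2, but 1 in the robust fit and in limma-voom and 0 without hIAPP 5 and hIAPP 6, 3 in DESeq2, and 1 to 3 when single libraries were left out. For rIAPP against WT, they were 1, but 2 with library totals, with TMM without the 10 most abundant genes, with no filter, with at least 1 CPM in at least 6 libraries and in DESeq2, 3 with only the 2 genotypes compared and without hIAPP 5 and hIAPP 6, and 1 to 2 when single libraries were left out. At equal acinar index, 0 members were called for hIAPP against WT under every alternative run, 5 for hIAPP against rIAPP (1 without hIAPP 5 and hIAPP 6, and 3 to 5 over single libraries) and 0 for rIAPP against WT (0 to 2). The slope was called in 2 members, and in 1 without hIAPP 5 and hIAPP 6.

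Values that turned direction had not passed a test. Reg2, rIAPP against WT, was at -0.36 with the title number, -0.55 in limma-voom and -0.36 to 0.64 over single left-out libraries. Reg1, hIAPP against rIAPP, was at -0.056 in limma-voom, -0.34 without hIAPP 5 and hIAPP 6, and -0.047 to 0.64 over single libraries. Without hIAPP 5 and hIAPP 6, hIAPP against rIAPP was at -0.28 for Reg3d and -0.61 for Reg3g, and Reg3g at equal index was at 0.21 for rIAPP against WT. The log2 ratio for hIAPP against WT was then -0.0097 for Reg1, -0.021 for Reg2, -0.22 for Reg3a, -0.085 for Reg3d and -0.031 for Reg3g. At equal index, hIAPP against WT over single libraries ran over -0.089 to 0.32 for Reg1, -0.67 to 1.07 for Reg2, -0.27 to 1.75 for Reg3a, -0.15 to 0.85 for Reg3b and -0.14 to 0.51 for Reg3d, each lowest without rIAPP 5. The log2 ratio of Reg1 for hIAPP against WT ran over -0.037 to 0.21. Reg3a in both hIAPP comparisons, and Reg1, Reg3d and Reg3g for hIAPP against WT, passed in all 18 single leave-outs. Depth limits Reg3g, with 0 to 17 counts in WT libraries, and Reg4.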
